A study of Mus musculus with 13 samples.

Results

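Expression of 10 genes of adipose tissue macrophages was followed in the inguinal fat pad, a subcutaneous white adipose depot, of 13 mice. The genes were chosen by symbol (Adgre1, Cd68, Csf1r, Mrc1, Cd163, Lyve1, Folr2, Mertk, Trem2 and C1qa) from a table of 54532 genes, with earlier results of these data known. Each symbol had 1 row, and all 10 were among the 14421 genes tested, each with an FPKM of 1 or more in 3 or more libraries. FPKM counts fragments on a gene per kilobase of its length and of the library's size, so it allows levels of different genes to be compared within a library.

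The 13 libraries, each from 1 mouse fasted for 12 h, formed 3 groups. In SF_HPD, 5 mice had sleep fragmentation and a high-protein diet with 50% of calories from protein, 12% from fat and 38% from carbohydrate. In SF_ConD, 5 mice had sleep fragmentation and normal chow, and in SC_ConD 3 mice had normal sleep and normal chow. Mice were allotted to the groups at random after matching for weight. The sources used here do not give sex, age or strain. SF_ConD against SC_ConD asks about sleep fragmentation on chow, SF_HPD against SF_ConD about the diet under sleep fragmentation, and SF_HPD against SC_ConD about both together. The p-values measure the spread between these mice.

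Macrophages are phagocytes that clear dead cells, take up lipid and debris, and survive on signals through the CSF1 receptor. In fat, resident macrophages lie along vessels and carry scavenger and endocytic receptors, and in obesity another population gathers around dying adipocytes and handles their lipid. Adgre1 encodes F4/80, the surface protein used to identify mouse macrophages. Cd68 encodes a lysosomal glycoprotein of phagocytes, and Csf1r the receptor for CSF1 and IL-34. Mrc1 (CD206) and Cd163 encode endocytic receptors, the first for mannose-bearing glycoproteins and the other for haemoglobin bound to haptoglobin. Lyve1 encodes a hyaluronan receptor that lymphatic vessels also carry, and Folr2 a folate receptor. C1qa encodes a chain of complement C1q, which macrophages secrete and which tags debris. Mertk encodes a receptor kinase for the engulfment of apoptotic cells, and Trem2 a lipid-sensing receptor of lipid-associated macrophages.

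The promoters of 4 members are shown because their genes form the contrasting pairs described further on: Mrc1 and Cd163, which varied together over the libraries, and Cd68 and Trem2, which were highest in the same mouse. They are RefSeq windows on GRCm38.p6, from 250 bases before to 50 bases after the gene's start, read 5′ to 3′ on the gene's strand. Capitals mark GAGGAA or its reverse complement TTCCTC, the core of the purine box that PU.1 binds. PU.1 is the myeloid transcription factor encoded by Spi1.
Mrc1, chr2:14229164-14229463, + strand: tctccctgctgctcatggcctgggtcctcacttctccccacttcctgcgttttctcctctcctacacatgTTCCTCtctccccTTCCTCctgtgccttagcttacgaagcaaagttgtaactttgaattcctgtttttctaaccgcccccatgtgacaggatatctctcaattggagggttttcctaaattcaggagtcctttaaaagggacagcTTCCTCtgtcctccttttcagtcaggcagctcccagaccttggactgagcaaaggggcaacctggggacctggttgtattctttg
Cd163, chr6:124304401-124304700, + strand: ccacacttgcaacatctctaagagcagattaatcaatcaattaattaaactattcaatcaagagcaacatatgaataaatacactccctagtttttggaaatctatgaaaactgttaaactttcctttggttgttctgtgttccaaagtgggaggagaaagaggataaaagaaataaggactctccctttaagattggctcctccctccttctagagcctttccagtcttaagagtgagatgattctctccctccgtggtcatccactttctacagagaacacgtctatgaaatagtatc
Cd68, chr11:69666121-69666420, - strand: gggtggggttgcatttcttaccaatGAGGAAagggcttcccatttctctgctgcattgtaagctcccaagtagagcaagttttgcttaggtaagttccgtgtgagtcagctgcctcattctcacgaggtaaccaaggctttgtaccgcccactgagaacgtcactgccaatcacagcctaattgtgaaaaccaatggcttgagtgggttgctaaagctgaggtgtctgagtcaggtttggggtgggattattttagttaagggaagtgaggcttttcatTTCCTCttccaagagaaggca
Trem2, chr17:48346151-48346450, + strand: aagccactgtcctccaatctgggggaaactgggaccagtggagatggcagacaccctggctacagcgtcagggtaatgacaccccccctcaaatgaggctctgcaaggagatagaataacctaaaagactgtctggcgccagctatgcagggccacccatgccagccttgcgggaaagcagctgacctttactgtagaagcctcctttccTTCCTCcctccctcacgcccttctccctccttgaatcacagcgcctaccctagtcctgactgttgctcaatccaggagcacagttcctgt
The Mrc1 window held the motif 3 times, each as TTCCTC, and the Trem2 window held it 1 time as TTCCTC. The Cd68 window held it 2 times, 1 in each orientation, and the Cd163 window did not hold these letters. Of 6 members matched in the RefSeq table, with 7 windows, 3 had the motif, and the windows of Mertk and Folr2 did not hold it. For comparison, 9289 of 32851 promoter windows of the same length (28.3%) held it on either strand.

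Sequencing depth was even, at 14815592 to 18303302 reads on genes per library, but tissue content was not. Markers of B cells (7 genes, among them Ms4a1 and Cd79a) had a mean log2(FPKM + 1) of 3.92 to 4.83 in SF_HPD 4 and 5 and SF_ConD 1, 4 and 5, and of 0 to 1.27 in the other 8 libraries. Of 3 markers of macrophages of lymph node sinuses, Marco and Cd209b split the libraries the same way: Marco was at 27.8 to 77.1 FPKM in those 5 libraries against at most 5.09 FPKM elsewhere, and Cd209b at 51.7 to 378 FPKM against at most 18.6 FPKM. The third, Siglec1, did not, at 0.635 to 4.79 FPKM in the 5 and 0 to 3.03 FPKM elsewhere. The liver gene Alb was at 4223 and 1614 FPKM in SC_ConD 2 and 3 and at no more than 88.3 FPKM elsewhere. Clec4f, which defines Kupffer cells of the liver, was at 3.22 and 2.06 FPKM there and at no more than 0.432 FPKM elsewhere. The other genes of the Kupffer list did not follow it as a set: Cd5l was highest in SF_ConD 1 and 4 (46.7 and 33.9 FPKM) and Vsig4 in SF_HPD 3 (1.47 FPKM), and the mean log2(FPKM + 1) of the 5 genes was 2.25 and 1.36 in SC_ConD 2 and 3 and 0.40 to 2.20 elsewhere. Skeletal muscle markers (Acta1, Myh4 and 3 more) summed to 14686 FPKM in SF_HPD 4 and 2649 FPKM in SC_ConD 3, against 3.52 to 240 FPKM in the other 11. The fat marker Adipoq was at 666 to 4231 FPKM in 12 libraries and at 26.1 FPKM in SF_HPD 2, in which all B cell and T cell markers listed were at 0. The mean log2(FPKM + 1) of the 6 adipocyte markers was 4.82 in SF_HPD 2 and 7.92 to 9.57 elsewhere. Of these markers, Pparg (63.6 FPKM) and Fabp4 (826 FPKM) were not at their lowest in SF_HPD 2. Finally, 4 libraries (SF_HPD 1 and 4, SF_ConD 3 and SC_ConD 1) leaned toward long transcripts: the Spearman rho across genes between gene length and the library's deviation from the mean profile was 0.514 to 0.610 in them and -0.463 to 0.0390 in the other 9. The same 4 had the highest mean log2(FPKM + 1) of 5 blood endothelial markers, 4.53 to 5.11, against 1.03 to 3.91 in the other 9.

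No member passed the test in any of the 3 comparisons. Of the values that came nearest, those of the endocytic receptor Mrc1 are described first. It was lower in SF_ConD than in SC_ConD (log2 fold change -0.97) and higher in SF_HPD than in SF_ConD (log2 fold change 0.91), with means of 6.29 FPKM in SF_HPD, 2.57 FPKM in SF_ConD and 5.91 FPKM in SC_ConD. Cd163 had the same signs. Mertk had its lowest mean in SF_HPD (3.04 FPKM), against 3.59 FPKM in SF_ConD and 5.53 FPKM in SC_ConD. The pan-macrophage genes Adgre1, Cd68 and Csf1r had differences smaller than their standard errors in all 3 comparisons.

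**Figure D1:**
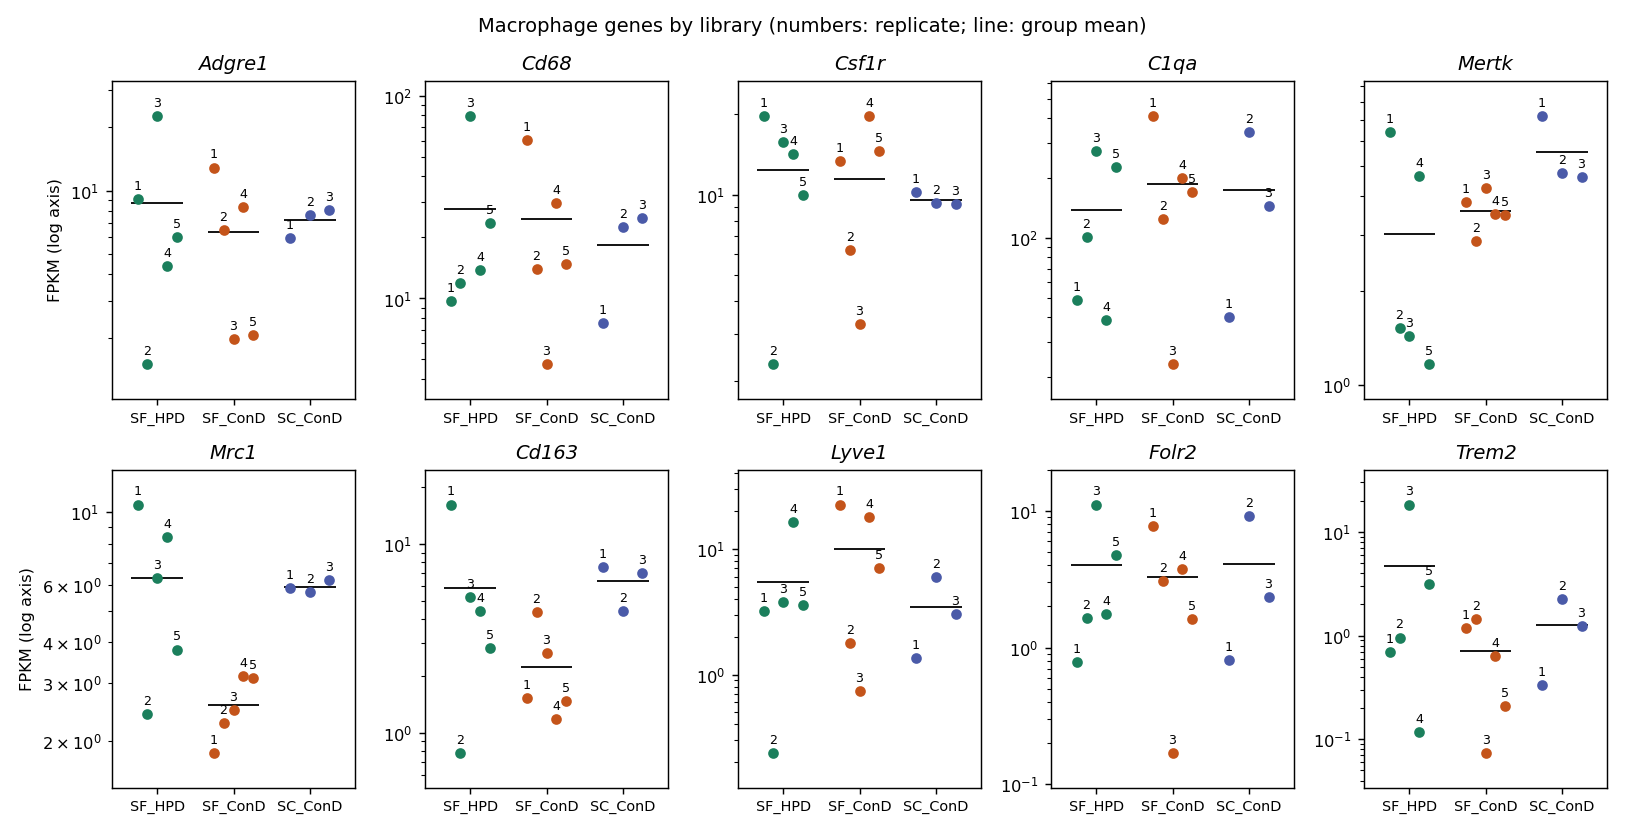
FPKM of the 10 macrophage genes in each library, on log axes, by group (SF_HPD, SF_ConD, SC_ConD); each point is 1 mouse, numbered by replicate, and the line is the group mean. Mrc1 spans 2.41 to 10.5 FPKM in SF_HPD, 1.84 to 3.16 FPKM in SF_ConD and 5.69 to 6.20 FPKM in SC_ConD, while most other genes overlap widely.

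Among the genes that mark macrophages in general, Adgre1 (chromosome 17, 57358691 to 57483527, plus strand, GRCm38) was at 9.17, 1.5, 22.7, 4.37 and 6.04 FPKM in SF_HPD 1 to 5. It was at 12.9, 6.52, 1.97, 8.37 and 2.07 FPKM in SF_ConD 1 to 5, and at 5.97, 7.68 and 8.09 FPKM in SC_ConD 1 to 3. The 3 SC_ConD mice lay inside the range of both other groups, and the highest and the lowest value of all 13 libraries both came from SF_HPD mice. The means were 8.76 ± 8.28 FPKM in SF_HPD, 6.36 ± 4.60 FPKM in SF_ConD and 7.25 ± 1.12 FPKM in SC_ConD (SD, n = 5, 5 and 3).

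Cd68 (chromosome 11, 69664213 to 69666153, minus strand) was at 9.72, 11.9, 79.7, 13.8 and 23.7 FPKM in SF_HPD, at 60.3, 13.9, 4.74, 29.7 and 14.8 FPKM in SF_ConD, and at 7.60, 22.4 and 24.8 FPKM in SC_ConD. SF_HPD 3 and SF_ConD 1 stood above the rest, and the groups overlapped. In 10 of 13 libraries Cd68 was the second most abundant member.

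Csf1r (chromosome 18, 61105572 to 61132149, plus strand; Hmgxb3 overlaps it on the other strand) was at 19.7, 2.32, 15.8, 14.2 and 9.97 FPKM in SF_HPD, at 13.4, 6.21, 3.28, 19.7 and 14.5 FPKM in SF_ConD, and at 10.2, 9.28 and 9.20 FPKM in SC_ConD. The lowest values were those of SF_HPD 2, poor in adipocyte transcripts, and SF_ConD 3. The SD was 6.64 FPKM in SF_HPD and 6.62 FPKM in SF_ConD, and 0.579 FPKM over the 3 SC_ConD mice. Its log2 fold change was 0.02 ± 0.60 (SE) for SF_ConD against SC_ConD and 0.09 ± 0.52 (SE) for SF_HPD against SF_ConD.

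Of the genes for engulfment, C1qa (chromosome 4, 136895917 to 136898803, minus strand) was the most abundant member in each of the 13 libraries. It was at 48.5, 101, 273, 38.8 and 227 FPKM in SF_HPD, at 411, 124, 23.2, 200 and 170 FPKM in SF_ConD, and at 40.1, 341 and 144 FPKM in SC_ConD. Its lowest 4 values were those of the 4 libraries that lean toward long transcripts, 23.2 to 48.5 FPKM against 101 to 411 FPKM in the other 9; its model is 1040 bases long, the shortest of the 10. The part of that trend in its group values was not tested.

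Mertk (chromosome 2, 128698956 to 128802894, plus strand) was at 6.44, 1.52, 1.43, 4.64 and 1.16 FPKM in SF_HPD. It was at 3.82, 2.89, 4.24, 3.52 and 3.49 FPKM in SF_ConD and at 7.24, 4.74 and 4.60 FPKM in SC_ConD. The unnamed model Gm14011 overlaps it on the other strand. All 5 SF_ConD mice lay below all 3 SC_ConD mice, whereas SF_HPD split into 2 mice with high and 3 with low values. The 2 high SF_HPD mice, 1 and 4, were those whose libraries lean toward long transcripts, and the highest mouse of SF_ConD and of SC_ConD was also such a library. Among the 9 libraries without that lean, Mertk was at 1.16 to 1.52 FPKM in SF_HPD, 2.89 to 3.82 FPKM in SF_ConD and 4.60 to 4.74 FPKM in SC_ConD, with no overlap between any 2 groups. Over the same 9 libraries, 2.66% of all genes tested were lower without overlap in SF_HPD against SF_ConD, 10.7% in SF_HPD against SC_ConD and 16.6% in SF_ConD against SC_ConD. The 2 SC_ConD mice that remain there are those with liver transcripts, so liver content and the group cannot be told apart in these 9 libraries. Over those 9 libraries the limma fit gave log2 fold changes of -0.90 for SF_HPD against SF_ConD, -1.26 for SF_HPD against SC_ConD and -0.36 for SF_ConD against SC_ConD, with adjusted p = 0.707, 0.0690 and 0.503, so that none passed there either.

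The endocytic receptors came next. Mrc1 (chromosome 2, 14229392 to 14332057, plus strand, with the microRNA gene Mir511 inside it) was at 10.5, 2.41, 6.27, 8.40 and 3.80 FPKM in SF_HPD. It was at 1.84, 2.26, 2.48, 3.16 and 3.10 FPKM in SF_ConD and at 5.84, 5.69 and 6.20 FPKM in SC_ConD. All SF_ConD mice lay below all SC_ConD mice, and 4 of the 5 SF_HPD mice lay above every SF_ConD mouse. The exception was SF_HPD 2. The means were 6.29 ± 3.31 FPKM in SF_HPD, 2.57 ± 0.564 FPKM in SF_ConD and 5.91 ± 0.259 FPKM in SC_ConD (SD, n = 5, 5 and 3).

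Cd163 (chromosome 6, 124304656 to 124330527, plus strand) was at 16.2, 0.783, 5.22, 4.40 and 2.81 FPKM in SF_HPD, at 1.54, 4.34, 2.64, 1.19 and 1.47 FPKM in SF_ConD, and at 7.55, 4.42 and 7.04 FPKM in SC_ConD. All SF_ConD mice were again below all SC_ConD mice, by a narrow margin between SF_ConD 2 and SC_ConD 2. In SF_HPD the values spread on both sides of the SC_ConD range.

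Lyve1 (chromosome 7, 110850607 to 110863239, minus strand) was at 3.21, 0.237, 3.78, 16.4 and 3.59 FPKM in SF_HPD, at 22.6, 1.79, 0.734, 18.1 and 7.03 FPKM in SF_ConD, and at 1.34, 6.01 and 3.04 FPKM in SC_ConD. Its highest 4 values were all from libraries rich in lymph node transcripts, and the fifth such library, SF_HPD 5, was at 3.59 FPKM. In the 8 libraries poor in lymph node transcripts it was at 0.237 to 6.01 FPKM. Prox1, which defines lymphatic endothelium and which hepatocytes also express, was at 0 to 2.39 FPKM in SF_HPD (highest in SF_HPD 4), 0.232 to 0.578 FPKM in SF_ConD and 0.0849 to 5.08 FPKM in SC_ConD. The mean log2(FPKM + 1) of the 6 lymphatic endothelial markers was 0.69 to 2.30 in SF_HPD, 0.53 to 2.16 in SF_ConD and 0.59 to 1.36 in SC_ConD. The part of lymph node or lymphatic vessel in the Lyve1 values was not tested.

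Folr2 (chromosome 7, 101839988 to 101857194, minus strand) was at 0.788, 1.64, 11.2, 1.76 and 4.76 FPKM in SF_HPD, at 7.73, 3.08, 0.169, 3.78 and 1.63 FPKM in SF_ConD, and at 0.806, 9.19 and 2.33 FPKM in SC_ConD. Its groups overlapped throughout. The 0.169 FPKM of SF_ConD 3 rests on 5 reads. The table lists 2 unnamed models that overlap Folr2 on the opposite strand, and the sources used here do not give the strand setting of the counting.

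Trem2 (chromosome 17, 48346401 to 48354147, plus strand) was the scarcest member in 10 of the 13 libraries. It was at 0.691, 0.958, 18.3, 0.117 and 3.16 FPKM in SF_HPD, at 1.19, 1.44, 0.0740, 0.640 and 0.211 FPKM in SF_ConD, and at 0.336, 2.24 and 1.24 FPKM in SC_ConD. SF_HPD 3 stood apart with 1710 reads, where the other 12 libraries had 7 to 155. Without that mouse the highest value of any library was 3.16 FPKM, also in SF_HPD, and the 3 groups overlapped.

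Within a group, the order of the members was the same at the top. C1qa averaged 138 ± 106 FPKM in SF_HPD, 186 ± 143 FPKM in SF_ConD and 175 ± 153 FPKM in SC_ConD. Cd68 followed at 27.8 ± 29.5, 24.7 ± 21.8 and 18.3 ± 9.34 FPKM, and Csf1r at 12.4 ± 6.64, 11.4 ± 6.62 and 9.57 ± 0.579 FPKM in the same groups. Cd68 and Csf1r overlapped in every group. Below Csf1r, neighbours in the order lay within an SD of each other, except Trem2 in SF_ConD (0.71 ± 0.595 FPKM), which was last and below Cd163. In SC_ConD Adgre1, Cd163, Mrc1 and Mertk lay between 5.53 and 7.25 FPKM. In SF_ConD Lyve1 came next after Csf1r, at 10.1 ± 9.83 FPKM, and Mrc1 and Cd163 were near the bottom, at 2.57 ± 0.564 and 2.23 ± 1.30 FPKM.

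For SF_ConD against SC_ConD, limma on log2(FPKM + 1) with Benjamini-Hochberg adjustment over all 14421 genes called 0 members and 0 genes (0%) at an adjusted p under 0.05. At an unadjusted p under 0.05 it found 2 of the 10 members, against 828 genes in all (5.74%), and limma-voom on recovered reads called 0 genes, with 608 at an unadjusted p under 0.05. The 2 members were Mrc1, with a log2 fold change of -0.97 ± 0.37 (SE; adjusted p = 0.822), and Cd163, with -1.24 ± 0.57 (SE; adjusted p = 0.861). Mertk followed with -0.49 ± 0.40 (SE). These 3 were also the members with no overlap between groups, all lower in SF_ConD; over all genes 1.92% were lower and 1.68% higher without overlap. The absence of overlap depended on scaling: on the deposited FPKM 3 members met it, under median-of-ratios and quantile scaling Mrc1 and Mertk did, and none did on TPM, which rescales FPKM to the same sum in each library. Without the libraries rich in lymph node transcripts, which leaves 2 SF_ConD mice, Csf1r joined Mrc1, Cd163 and Mertk, where 3.93% of all genes were lower without overlap.

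On TPM, Mrc1 was at 2.76 to 7.03 in SF_ConD and 5.64 to 16.1 in SC_ConD. The TPM rescaling also moved the median log2 fold change of all genes to 0.16, against -0.03 on FPKM. Mrc1 and Cd163 kept a negative fold change in all 22 alternatives, from -1.20 to -0.85 for Mrc1 and from -1.61 to -0.71 for Cd163. Each gene's lowest adjusted p over these alternatives was 0.286 for Mrc1 and 0.350 for Cd163. In bulk tissue, fewer macrophages and less RNA per macrophage cannot be told apart.

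The other members gave no lead in this comparison. Their log2 fold changes ran from -0.41 ± 0.66 (SE) for Adgre1 to 0.80 ± 0.91 (SE) for Lyve1. Over the 10 members the median was -0.28, with 6 negative and 4 positive, and over all genes tested it was -0.03. Without the 5 libraries rich in lymph node transcripts, which leave SF_ConD with 2 mice, the fold changes of Cd68, Csf1r, Lyve1 and C1qa were -0.91, -0.93, -0.88 and -1.21, where they had been positive over all libraries.

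**Figure D2:**
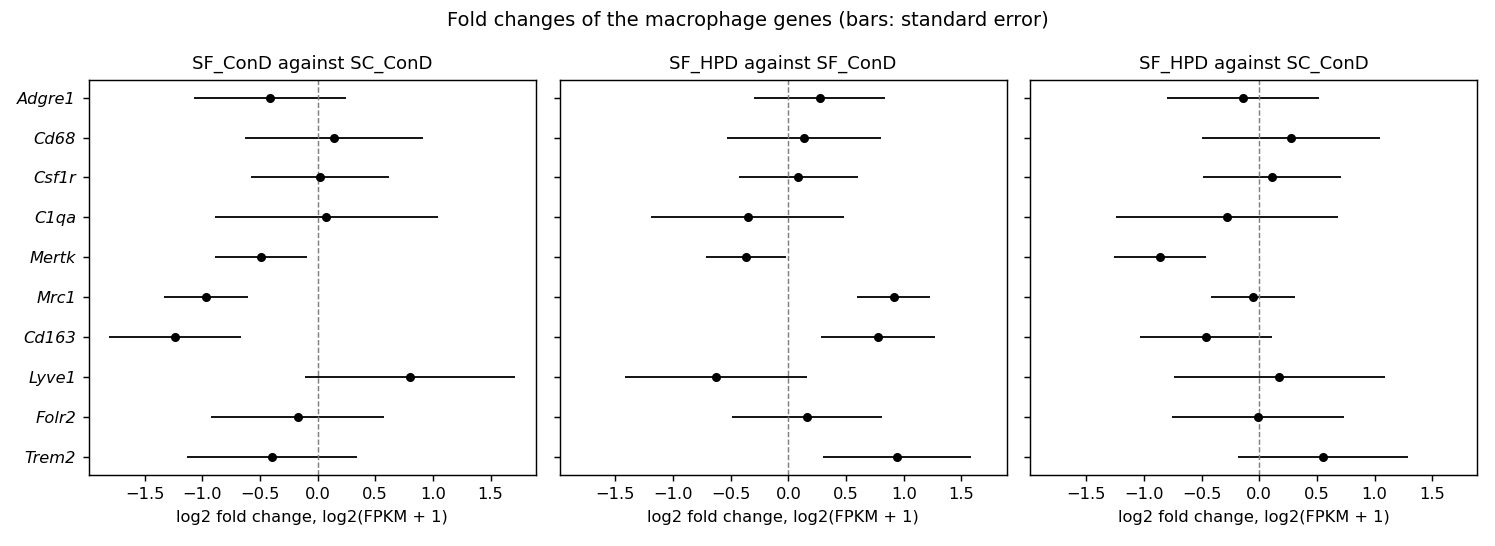
Log2 fold change of each macrophage gene (points) with its standard error (bars), from limma on log2(FPKM + 1) over all 13 libraries, with 1 panel per comparison. Mrc1 lies at -0.97, 0.91 and -0.06 in these comparisons; no gene passed the adjusted threshold of 0.05.

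For SF_HPD against SF_ConD, the same limma test called 0 members and 0 genes (0%), and found 1 member at an unadjusted p under 0.05 against 273 genes in all (1.89%); limma-voom called 0 genes, with 258 at an unadjusted p under 0.05. That member was Mrc1, 0.91 ± 0.32 on the log2 scale (SE; adjusted p = 1.0). Because SF_ConD is in both comparisons, the low Mrc1 values of these 5 mice enter both fold changes, and the 2 are not independent. No member was free of overlap; over all genes 0.229% were higher and 0.229% lower without overlap. Without SF_HPD 2, the library poor in adipocyte transcripts, Mrc1 was higher with no overlap, as were 0.562% of all genes, and its log2 fold change was 1.15. Without the 4 libraries that lean toward long transcripts it was 0.47, and over all 24 alternatives it stayed positive.

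Trem2 had the largest log2 fold change among the members in this comparison, 0.94 ± 0.64 (SE; adjusted p = 1.0), and without SF_HPD 3 it was 0.28. Cd163 was at 0.78 ± 0.49 (SE), and without SF_HPD 1 at 0.35. Adgre1, Cd68, Csf1r and Folr2 lay between 0.09 and 0.27, and Mertk, C1qa and Lyve1 at -0.37, -0.35 and -0.63. The median over members was 0.15, with 7 positive and 3 negative, and 0.01 over all genes. The Lyve1 and C1qa values turned to 0.41 and 1.02 without the libraries rich in lymph node transcripts.

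For SF_HPD against SC_ConD, limma called 0 members and 0 genes (0%), and 0 members against 531 genes (3.68%) had an unadjusted p under 0.05; limma-voom called 0 genes, with 458 at an unadjusted p under 0.05. Mertk had the largest difference, -0.86 ± 0.40 on the log2 scale (SE; unadjusted p = 0.0514, adjusted p = 1.0). It was negative in all 22 alternatives, from -1.26 to -0.65, and its lowest adjusted p was 0.0690. Among mice of the same number, which no label pairs, Mertk was lower in the SF_HPD mouse for all 3 numbers. A limma fit with the replicate as a block gave -0.85 ± 0.34 for Mertk (SE, adjusted p = 0.936). SC_ConD has mice numbered 1 to 3 only, so that fold change rests on mice 1 to 3 of each group. Mrc1 was at -0.06 ± 0.37 (SE), and the remaining members ran from -0.46 for Cd163 to 0.55 for Trem2. No member was free of overlap, while over all genes 0.791% were higher and 0.853% lower. The median over members was -0.03, with 6 negative and 4 positive, and 0.02 over all genes. Under the TPM rescaling the median of all genes was 0.25 in this comparison, and Adgre1, Mrc1 and Folr2 were at 0.14, 0.23 and 0.28, around that median.

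Setting each gene against Adgre1 within the same library removes the library-wide scaling from the comparison. It does not remove the lean of 4 libraries toward long transcripts, as the models of Adgre1, Mrc1 and Trem2 are 3238, 6371 and 4946 bases long. Mrc1 was 0.276 to 1.92 times Adgre1 in SF_HPD (median 1.15), 0.142 to 1.5 times in SF_ConD (median 0.377) and 0.741 to 0.978 times in SC_ConD (median 0.766). SF_ConD had the lowest median of the 3 groups, and also 2 mice above the whole SC_ConD range. The ratio of Trem2 to Adgre1 had a median of 0.523 in SF_HPD, 0.0922 in SF_ConD and 0.154 in SC_ConD, with ranges of 0.0268 to 0.808, 0.0376 to 0.220 and 0.0562 to 0.292. In 3 SF_HPD mice it was above every SF_ConD and SC_ConD mouse, and in SF_HPD 1 and 4 it was within or below their ranges. For Mertk the ratio ran from 0.0630 to 1.06 in SF_HPD, 0.297 to 2.15 in SF_ConD and 0.569 to 1.21 in SC_ConD, which overlapped. The ratio of Cd163 had medians of 0.522, 0.666 and 0.870 in SF_HPD, SF_ConD and SC_ConD, and that of Folr2 had 0.493, 0.472 and 0.288.

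The members did not vary as one block. On log2(TPM + 1) over the 13 libraries, Mrc1 and Cd163 had a Pearson r of 0.91 (Spearman rho 0.90), and each had an r of 0.77 and 0.78 with Mertk. C1qa and Folr2 had an r of 0.90 (rho 0.86), Cd68 had 0.86 with Folr2 and 0.81 with C1qa, and Trem2 had 0.74 with Folr2. Between Mrc1, Cd163 and Mertk on one side and Cd68, Folr2, C1qa and Trem2 on the other, r ran from -0.29 (Mertk and Trem2) to 0.32 (Cd68 and Mrc1). Adgre1 was like both, with 0.83 for Cd68 and 0.66 for Mrc1. Without the 2 libraries farthest from the median of the first gene, r was 0.88 for Mrc1 and Cd163 and 0.84 for Folr2 and C1qa. The other pairs within the sets then ran from 0.35 (Cd68 and Trem2) to 0.71 (Cd68 and Folr2). Pairs between the sets ran from -0.58 (Mertk and C1qa) to 0.56 (Cd68 and Mrc1), so the 2 ranges overlapped. In the 8 libraries poor in lymph node transcripts r was 0.96 for Mrc1 and Cd163 and 0.98 for Folr2 and C1qa. There the pairs between the sets ran from -0.30 to 0.52, again highest for Cd68 and Mrc1. The libraries fall into clusters by lymph node content, and the points share the libraries' scaling and tissue content, and no p is given.

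**Figure D3:**
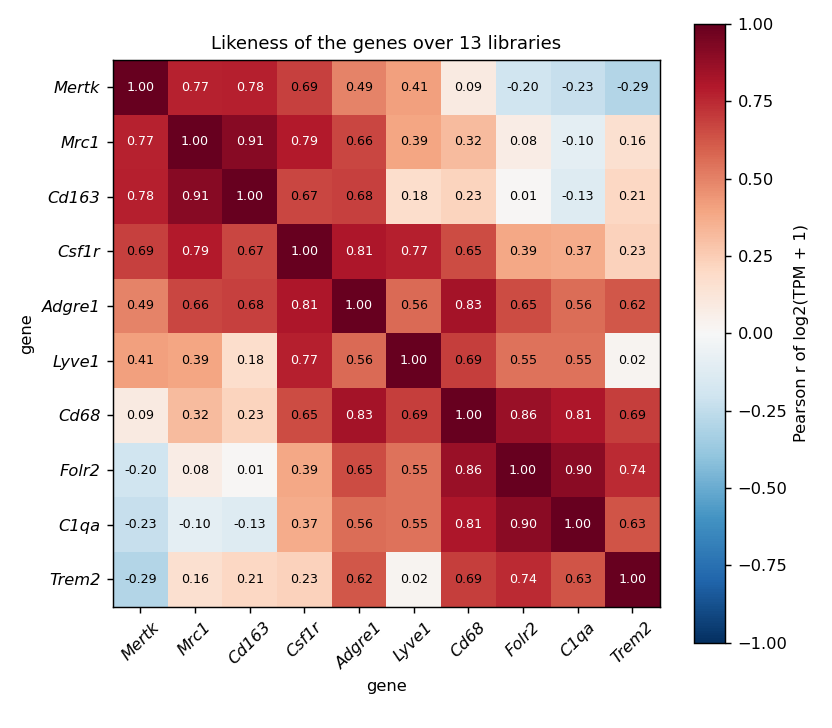
Pearson r between the macrophage genes on log2(TPM + 1) over 13 libraries, with genes on both axes; red is positive and blue negative. Mertk, Mrc1, Cd163 and Csf1r are alike at the upper left, and Cd68, Folr2, C1qa and Trem2 at the lower right.

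Most genes of the 2 sets also differed in length, and some in their levels in the 4 libraries that lean toward long transcripts. Mrc1, Cd163 and Mertk have models of 6371, 5461 and 4336 bases. Mertk was at 11.8 to 24.5 TPM in those 4 libraries and at 1.15 to 7.85 TPM in the other 9, with no overlap, and Mrc1 at 6.87 to 40.1 TPM against 1.83 to 13.5 TPM. C1qa, Cd68 and Folr2 have models of 1040, 1257 and 1546 bases, and C1qa was at 64.4 to 185 TPM in the 4 libraries and at 76.8 to 619 TPM in the 9. Trem2, of the same set, has a model of 4946 bases, longer than that of Mertk. These are lengths of gene models, and the lengths of the transcripts present were not measured. Within the 9 libraries the levels followed the length trend only loosely, with a Pearson r of 0.30 for Mrc1 (Spearman rho 0.30), 0.44 for Mertk (rho 0.30), 0.08 for Cd163 (rho 0.08) and 0.06 for C1qa (rho -0.18), given as a description. No r is given over all 13 libraries, which fall into 2 clusters of this trend. The part of the length trend in the likeness between members was not tested.

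**Figure D4:**
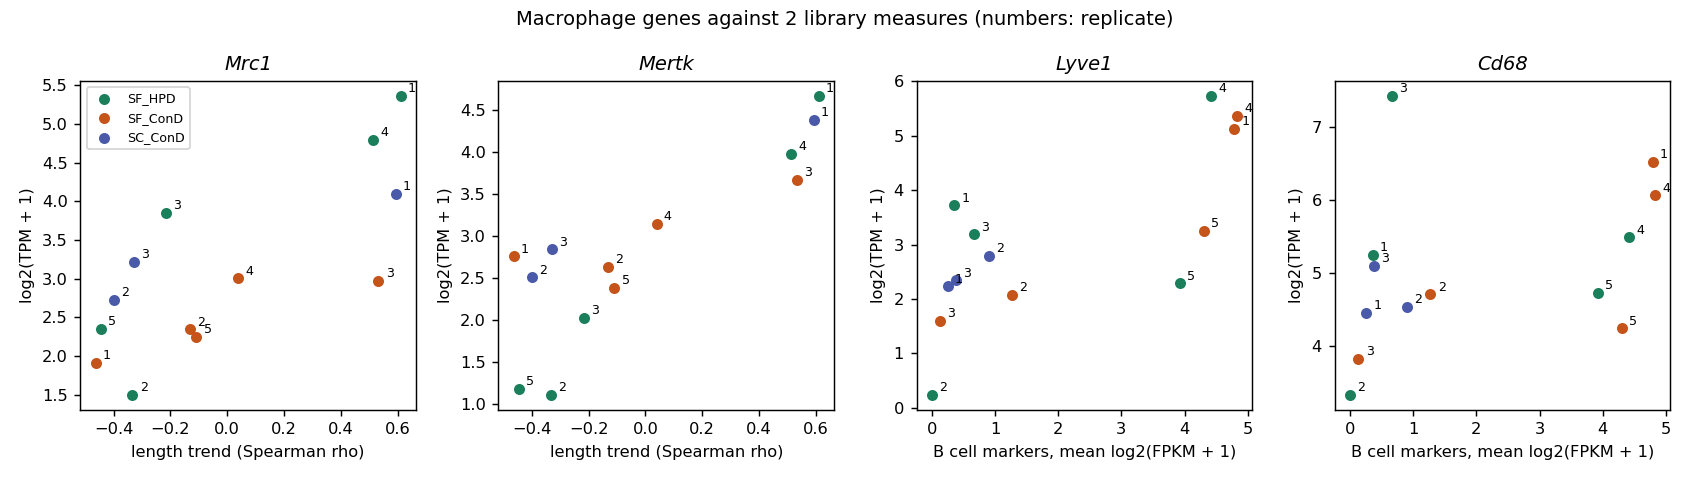
Log2(TPM + 1) of Mrc1 and Mertk against the length trend of each library, and of Lyve1 and Cd68 against the mean log2(FPKM + 1) of the B cell markers; points are mice, coloured by group and numbered by replicate. Mertk is at 11.8 to 24.5 TPM in the 4 libraries at the right of its panel and at 1.15 to 7.85 TPM in the other 9, while Cd68 in SF_HPD 3 is high at a B cell mean of 0.66.

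Among 9807 genes searched, with a mean of at least 2 FPKM, the nearest to the mean of the members was Ptafr, which encodes the receptor for platelet-activating factor (r = 0.97, 13 libraries; rho 0.98), followed by Tm6sf1 (0.96) and Tfpi, an inhibitor of the tissue factor pathway (0.95). C1qa was nearest to C1qb (0.98) and C1qc (0.98), the genes of the other C1q chains, and Folr2 to Nt5dc2 (0.95), C1qc (0.93) and C1qb (0.92). Cd68 was nearest to Cd300a (0.95), an inhibitory receptor of myeloid cells, then Apobec1 (0.93) and Cd300ld (0.92). Csf1r was nearest to Axl (0.97), a receptor kinase of the same family as Mertk, then Cpxm1 (0.96) and Dse (0.95). Mrc1 was nearest to Col15a1 (0.96), a basement membrane collagen, Rnd3 (0.96) and Mxra8 (0.95), none of which marks macrophages. The nearest to Cd163 were Mmp28 (0.98), Rps6kb1 (0.97) and Htra3 (0.96), and to Mertk Acsf2 (0.97), Fbxo38 (0.96) and Nup188 (0.96). Among the nearest to Adgre1 were Ptafr (0.93) and Sec13 (0.92), and Lyve1 was nearest to Jam3 (0.95), Me2 (0.95) and Tnfaip3 (0.94). Trem2 had the weakest neighbours, Clec4d (0.91), a C-type lectin of myeloid cells, Eva1b (0.86) and Pusl1 (0.82), and the rho of Trem2 with Clec4d was 0.69.

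The high and low values were gathered in few mice. SF_HPD 3 was the highest of all 13 libraries for 4 members (Adgre1, Cd68, Folr2 and Trem2) and SF_HPD 1 for 3 (Csf1r, Mrc1 and Cd163). SF_HPD 2 was the lowest for 4 (Adgre1, Csf1r, Cd163 and Lyve1) and SF_ConD 3 for another 4 (Cd68, Folr2, Trem2 and C1qa). The SD in SF_HPD was the largest of the 3 groups for Adgre1, Cd68, Csf1r, Mrc1, Cd163, Mertk and Trem2.

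SF_HPD 3 was described further, because Trem2 is known to mark lipid-associated macrophages. Gpnmb, a glycoprotein of such macrophages, was at 24.4 FPKM in SF_HPD 3 and at 0.720 to 6.84 FPKM in the other 12 libraries. Atp6v0d2, a proton pump subunit named after its values were seen, was at 17.6 FPKM there and at 0 to 1.89 FPKM elsewhere. Spp1 (osteopontin) was at 6.15 FPKM in SF_HPD 3 but higher in SC_ConD 2 and 3, at 23.1 and 11 FPKM, which are the libraries with liver transcripts. Cd9, a tetraspanin, was at 83.5 FPKM there, below SF_HPD 2 (205 FPKM), SF_ConD 3 (110 FPKM) and SC_ConD 3 (88.5 FPKM). Alb was at 22.2 FPKM in SF_HPD 3, Marco at 0.744 FPKM, Cd209b at 15.6 FPKM and the B cell mean at 0.66. The mean log2(FPKM + 1) of the Kupffer list was 2.20 there, against 2.25 in SC_ConD 2 and 1.36 in SC_ConD 3. The part of tissue content in the values of SF_HPD 3 was not tested.

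**Figure D5:**
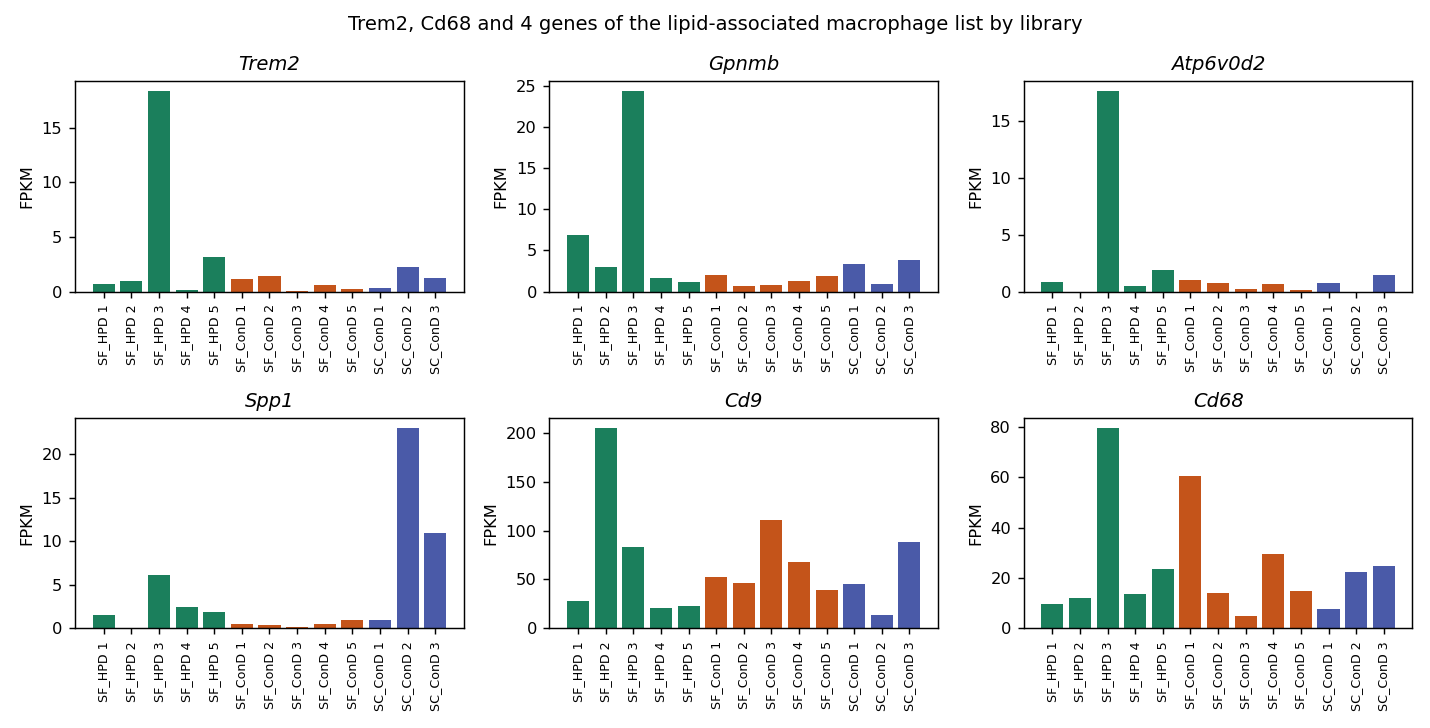
FPKM of Trem2, Gpnmb, Atp6v0d2, Spp1, Cd9 and Cd68 in each library (bars), coloured by group in the order SF_HPD, SF_ConD, SC_ConD. Trem2 (18.3 FPKM), Gpnmb (24.4 FPKM), Atp6v0d2 (17.6 FPKM) and Cd68 (79.7 FPKM) are highest in SF_HPD 3, whereas Spp1 is highest in SC_ConD 2 and Cd9 in SF_HPD 2.

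Other genes of macrophage function were read from 10 lists. No gene of any list passed in any comparison, where 0% of all genes passed. Of the lipid-associated list, 14 of 14 genes were tested, with a median log2 fold change of -0.32 for SF_ConD against SC_ConD, -0.01 for SF_HPD against SF_ConD and -0.36 for SF_HPD against SC_ConD. In the same comparisons Cd9 was at 0.61, -0.31 and 0.31, Gpnmb at -0.58, 1.24 and 0.65, and Spp1 at -2.48, 0.94 and -1.54.

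The resident perivascular list, 14 genes tested, had medians of -0.45, 0.25 and -0.43 in those comparisons. For SF_ConD against SC_ConD 11 of 14 were negative, as were 52.6% of all genes. The list's mean log2(FPKM + 1) was 5.22 and 4.59 in SC_ConD 2 and 3, which hold liver transcripts. It was 3.15 in SC_ConD 1 and 2.75 to 4.93 in SF_ConD, and the part of liver transcripts was not tested. F13a1, which encodes a coagulation factor XIII chain made by resident macrophages, lay at 1.34 to 14.1 FPKM in SF_HPD, 1.80 to 6.03 FPKM in SF_ConD and 6.02 to 6.59 FPKM in SC_ConD. Its fold changes were -0.73 for SF_ConD against SC_ConD and 0.57 for SF_HPD against SF_ConD, the same signs as Mrc1 and Cd163. Timd4, a phosphatidylserine receptor, was at 19.0 to 88.5 FPKM in the libraries rich in lymph node transcripts and at most 2.38 FPKM elsewhere. Cbr2, a carbonyl reductase that resident macrophages express, was at 541 FPKM in SF_HPD 2 and at 5.77 to 49.7 FPKM in the others.

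The C1q and complement list, 9 genes tested, had medians of -0.74, -0.20 and -0.67 in the same comparisons. The genes of the other C1q chains had small values like those of C1qa (0.08, -0.35 and -0.28): C1qb was at 0.10, -0.44 and -0.34 and C1qc at 0.02, -0.20 and -0.19. C1ra, a protease of the C1 complex that hepatocytes and stromal cells also make, was at -1.13, 0.19 and -0.95. Complement genes are strongly expressed by liver, and Alb was high in 2 of the 3 SC_ConD libraries; the part of liver transcripts was not tested.

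For efferocytosis, the engulfment of dead cells, 11 genes were tested, with medians of -0.22, 0.07 and -0.10. Axl was at -0.17, 0.07 and -0.10, Tyro3, the third kinase of the family, at 0.36, 0.34 and 0.70, and Gas6, a ligand of all 3, at -0.42, 0.03 and -0.39. The efferocytosis list's mean log2(FPKM + 1) was 3.30 to 3.67 in the 4 long-transcript libraries and 2.41 to 3.16 in the other 9. The part of the length trend in these values was not tested. In the list of macrophage identity and the CSF1 axis, 9 of 10 genes were tested, with medians of -0.03, -0.10 and 0.28. Il34 and Csf1, the ligands of Csf1r, were at -1.0, -0.10 and -1.10 and at -0.03, 0.26 and 0.22, and Spi1 at 0.61, -0.33 and 0.28. Il34 lay at 0.885 to 13.7 FPKM in SF_HPD, 4.06 to 9.85 FPKM in SF_ConD and 9.42 to 25.8 FPKM in SC_ConD.

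The medians of the pan-myeloid, classical activation and monocyte lists had the same signs as those of the B cell markers. The pan-myeloid list, 12 genes tested, had medians of 0.69, -0.49 and 0.40, the classical activation list, 9 genes tested, of 0.94, -0.50 and 0.58, and the monocyte list, 8 genes tested, of 0.38, -0.24 and 0.18. The B cell markers, 7 genes, had medians of 2.54, -1.35 and 1.36 in the same comparisons, and none of these lists had a gene that passed. Ptprc (CD45) was at 1.33, -0.52 and 0.81, Tyrobp, the adaptor through which Trem2 signals, at -0.48, 0.22 and -0.26, and Fcer1g at 0.24, -0.48 and -0.24. Of the classical activation genes, Nos2 was at -1.02, 0.37 and -0.65, Tnf at 1.18, -0.56 and 0.62 and Il1b at 0.33, -0.20 and 0.13. Tnf lay at 0 to 1.85 FPKM in SF_HPD, 0.491 to 3.27 FPKM in SF_ConD and 0 to 0.253 FPKM in SC_ConD. Of the monocyte genes, Ly6c2 was at 1.69, -1.42 and 0.27, Ccr2 at -0.0037, -0.17 and -0.18 and Plac8 at 0.12, -0.31 and -0.19. The part of lymph node content in these values was not tested.

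The alternative activation list, 8 of 9 genes tested, had medians of 0.30, -0.67 and -0.19, with all 8 negative for SF_HPD against SF_ConD, as were 48.1% of all genes. The mean log2(FPKM + 1) of its 9 genes was 2.61 to 3.68 in the 5 libraries rich in lymph node transcripts (2 SF_HPD and 3 SF_ConD mice), against 1.35 to 2.29 in the other 5 SF_HPD and SF_ConD libraries, and the part of lymph node content was not tested. Arg1 was at -3.00, -1.05 and -4.05 and Retnla at -2.12, -0.39 and -2.51, and their SC_ConD values were 191 and 80.1 FPKM for Arg1 and 4497 and 528 FPKM for Retnla in the 2 libraries with liver transcripts, against 2.32 and 60.5 FPKM in SC_ConD 1. Chil3 was at 0.61, -0.59 and 0.02. Of the scavenger receptors, 6 of 7 tested, the medians were 0.04, -0.31 and -0.17, and Msr1 was at 0.04, -0.02 and 0.02, Marco at 2.36, -1.30 and 1.06 and Cd36, which adipocytes also express, at -0.74, -0.41 and -1.15.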

How the data were processed

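Total RNA of inguinal fat from 13 individual mice was sequenced. The authors deposited 1 table of FPKM per gene, with gene names, positions and lengths. The tools CASAVA, HISAT2 2.0.5 and featureCounts 1.5.0-p3 and the build mm8 are named, with no role or order, per the submitters' processing notes. Most coordinates match the GENCODE M21 annotation of GRCm38 (53585 of 54532 start and end alike) and 9 of 10 members do, so they are given on GRCm38; Csf1r starts elsewhere in M21. The sources used here do not give the strand setting.

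FPKM times gene length was a whole multiple of each library's smallest step for 100% of values, within a tolerance of 0.05, which recovers the reads. The divisor behind the FPKM values was 0.479 to 1.23 times a library's own reads, and FPKM sums differed 5.03-fold, so scaling was varied.

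The 14421 genes with an FPKM of 1 or more in 3 or more libraries were tested. Group means were fitted on log2(FPKM + 1) over the 13 libraries with limma 3.58.1 (R 4.3.3; eBayes with trend and robust options, two-sided). P-values were adjusted by Benjamini-Hochberg over all tested genes, with a threshold of 0.05. On this scale the fold changes of low genes are understated. The steps were tested on simulated reads. No overlap means that all values of one group exceed all of the other. Members and lists were chosen with earlier results of these data known. Named genes are all members, the first 3 of each list, any list gene that passes and up to 3 nearest genes per member. Some genes that this rule names are not reported here. Alternatives were a pseudocount of 0.1, 2 other filters, 3 other scalings, eBayes without both options, only the 2 groups compared, limma-voom on recovered reads, the replicate block, and leaving out libraries singly or as sets defined by tissue content or length trend (the set with skeletal muscle transcripts chosen after seeing the data).

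No library pair was alike within sampling noise (lowest chi-square per degree of freedom 96.5). The labels number replicates but name no source of a pairing. Deviations of same-numbered libraries from their group means correlated at 0.711, 0.333 and 0.191 for SF_HPD and SC_ConD. The 0.711 is that of SF_HPD 1 and SC_ConD 1, which both lean toward long transcripts. In the other comparisons some correlations were negative. These values do not show that the numbers pair mice, so the replicate block is only an alternative beside the unpaired main fit.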

Additional observations from a re-analysis of the deposited data

Results flagged for a closer look

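In 4 of 20 sets of 5 mice (10 genes in SF_HPD and in SF_ConD), 1 mouse lay farther from the others than Dixon's 95% critical value allows. That value assumes a normal spread, whereas these are FPKM values without a log. The sets also share mice and hold correlated genes, so the count of 4 is a description and is not set against a chance rate. All 4 are the highest SF_HPD value: Cd68 at 79.7 FPKM and Trem2 at 18.3 FPKM, both in SF_HPD 3, Cd163 at 16.2 FPKM in SF_HPD 1, and Lyve1 at 16.4 FPKM in SF_HPD 4. Beside them, SF_HPD 3 was the library with high Gpnmb (24.4 FPKM), SF_HPD 1 had the highest length trend (0.610), and SF_HPD 4 had skeletal muscle markers summing to 14686 FPKM, a B cell marker mean of 4.42 and a length trend of 0.514. SC_ConD, with 3 mice, was not examined in this way.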

How the results depend on the processing

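No member passed the adjusted threshold under any alternative. The direction held under every alternative for Adgre1, Mrc1, Cd163 and Mertk in SF_ConD against SC_ConD, for Mrc1, Cd163, Mertk and Trem2 in SF_HPD against SF_ConD, and for Cd163 and Mertk in SF_HPD against SC_ConD. Without the long-transcript libraries, genes called numbered 162 in SF_ConD against SC_ConD and 172 in SF_HPD against SC_ConD, in place of 0, and none was a member. Both that setting and leaving out SC_ConD 1 alone leave SC_ConD 2 and 3, the libraries with liver transcripts, as the whole group. Liver content and the group cannot be told apart in either. Leaving out each library in turn gave 0 to 194 genes called in SF_ConD against SC_ConD, 0 to 1 in SF_HPD against SF_ConD and 0 to 196 in SF_HPD against SC_ConD; the 194 and 196 came without SC_ConD 1, and the 1 without SF_HPD 5. Members without overlap in SF_ConD against SC_ConD numbered 0 on TPM and 4 without the lymph node-rich libraries (Csf1r in addition), in place of 3. In SF_HPD against SF_ConD they numbered 1 without the adipocyte-poor library SF_HPD 2 (Mrc1, higher) and 1 without the long-transcript libraries (Mertk, lower), in place of 0, so that single libraries gave 0 to 1. In SF_HPD against SC_ConD they numbered 1 without the long-transcript libraries (Mertk, lower), in place of 0. Leaving out the liver-bearing libraries leaves SC_ConD 1 alone in its group, a long-transcript library, so no overlap was counted there.

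No member whose sign turned had passed the threshold, and the cause was not tested. Fold changes against SC_ConD without the liver-bearing libraries set 5 mice against that 1 mouse, which limma assumes to vary like the other groups. Leaving out the muscle-bearing libraries (SF_HPD 4 and SC_ConD 3) was chosen after seeing the data. In SF_ConD against SC_ConD the reversed log2 fold changes were -0.0032 for Csf1r with the pseudocount of 0.1 and -0.0018 for Csf1r without the muscle-bearing libraries. Without the lymph node-rich libraries they were -0.91 for Cd68, -0.93 for Csf1r, -0.88 for Lyve1 and -1.21 for C1qa. Without the liver-bearing libraries they were -0.066 for Csf1r, 0.95 for Folr2 and 0.28 for Trem2, and without the long-transcript libraries -0.12 for C1qa. In SF_HPD against SF_ConD they were 0.41 for Lyve1 and 1.02 for C1qa without the lymph node-rich libraries, and -0.67 for Csf1r without the long-transcript and -0.017 without the muscle-bearing libraries. In SF_HPD against SC_ConD, TPM gave 0.14 for Adgre1, 0.23 for Mrc1 and 0.28 for Folr2, and quantile scaling 0.043 for Mrc1, 0.018 for Folr2 and 0.082 for C1qa. Folr2 was also at 0.0063 under median-of-ratios scaling, 0.0091 with the pseudocount of 0.1 and 0.18 with limma-voom. In that comparison, leaving out the adipocyte-poor library gave 0.25 for Adgre1, 0.18 for Mrc1 and 0.13 for Folr2, leaving out the liver-bearing libraries 0.093 for Adgre1, 1.12 for Folr2 and 1.35 for C1qa, leaving out the muscle-bearing libraries 0.053 for Adgre1, -0.019 for Csf1r, -0.31 for Lyve1 and 0.17 for C1qa, leaving out the long-transcript libraries -0.27 for Csf1r and -0.82 for Lyve1, and leaving out the lymph node-rich libraries 0.043 for Adgre1, -0.0099 for Csf1r and -0.47 for Lyve1.

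The replicate block changed no call: it called 0 genes in each comparison, with 199, 313 and 409 at an unadjusted p under 0.05, and gave Mrc1 -1.12 in SF_ConD against SC_ConD and Mertk -0.85 in SF_HPD against SC_ConD. Under the block Csf1r was at -0.47 and C1qa at -0.24 in SF_ConD against SC_ConD, and Adgre1 at 0.043, Csf1r at -0.0099 and Lyve1 at -0.47 in SF_HPD against SC_ConD. Against SC_ConD the block fold changes rest on mice 1 to 3 of each group. In SF_HPD against SC_ConD these are the mice left without the lymph node-rich libraries, so those alternatives give the same fold changes.

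Leaving out single libraries turned the sign of some members, which ranged as follows. In SF_ConD against SC_ConD, Cd68 ran from -0.37 to 0.57, Csf1r from -0.21 to 0.35, Folr2 from -0.74 to 0.51 and C1qa from -0.74 to 0.79. In SF_HPD against SF_ConD, Adgre1 ran from -0.15 to 0.66, Cd68 from -0.35 to 0.56, Csf1r from -0.24 to 0.53, Folr2 from -0.25 to 0.49 and C1qa from -0.97 to 0.051. In SF_HPD against SC_ConD, Adgre1 ran from -0.56 to 0.25, Cd68 from -0.23 to 0.56, Csf1r from -0.11 to 0.56, Mrc1 from -0.26 to 0.18, Lyve1 from -0.31 to 0.64, Folr2 from -0.57 to 0.67, Trem2 from -0.11 to 0.92 and C1qa from -1.09 to 0.44. Depth limited Folr2, Lyve1 and Trem2, with as few as 5, 6 and 7 reads in a library.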
